A study of Rattus norvegicus with 2 samples.

Results

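A set of 6 genes that move sodium, water and urea across membranes was followed in small mesenteric arteries of rats with portal hypertension and of sham-operated rats. They are Atp1b1 and Atp1b2, which encode beta subunits of the sodium pump, the aquaporin genes Aqp1, Aqp3 and Aqp4, and the urea transporter gene Slc14a1. All probe sets whose only gene symbol in the platform annotation is one of these 6 names were taken, which gave 11 of the 8799 probe sets of the array and 6 of 4736 named genes. Slc14a1 was included because its signal was lower in the portal hypertension pool, so it was selected on the measured signal of these 2 arrays; its ratio is a description and supports nothing further.

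The arteries, of the first and second branching order, came from 2 groups of rats. One had prehepatic portal hypertension made by partial ligation of the portal vein, and the other a sham operation. RNA from 20 rats was pooled in each group and each pool was hybridised to 1 Affymetrix RG_U34A array. The labels give no strain, sex, age or time after the operation. There was 1 array per group, so no difference below has a standard error or a p-value, and precision is limited by their number. A pool hides the spread between rats, and in whole arteries fewer cells of a type cannot be told apart from less RNA per cell.

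The sodium pump exports sodium from the cell and imports potassium at the cost of ATP. Its alpha subunit does the transport, its beta subunit is a glycoprotein needed to fold the enzyme and bring it to the membrane, and small FXYD proteins tune its activity. In arterial smooth muscle the sodium gradient that the pump keeps up drives the sodium-calcium exchanger and thereby bears on vessel tone. Aquaporins let water cross membranes along osmotic gradients, and some of them also pass glycerol. The Slc14a1 product passes urea and is best known from red blood cells and from the descending vasa recta of the kidney.

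Of the 4 genes that gave a value above the signal floor set out below, Slc14a1 (lower in portal hypertension) and Aqp1 (higher) had the largest gene-level ratios, and they went opposite ways. Slc14a1 was picked for its lower signal, so its direction and place in this order are not a result. The upstream sequence of both genes is given here as genomic context for these 2 mRNAs, 250 bases before the annotated start, from RefSeq's table for the rat assembly GRCr8. Capitals mark a TATA box (TATAAA) or a GC box (GGGCGG). The array measured no promoter.
Slc14a1, chr18:73864644-73864893, minus strand: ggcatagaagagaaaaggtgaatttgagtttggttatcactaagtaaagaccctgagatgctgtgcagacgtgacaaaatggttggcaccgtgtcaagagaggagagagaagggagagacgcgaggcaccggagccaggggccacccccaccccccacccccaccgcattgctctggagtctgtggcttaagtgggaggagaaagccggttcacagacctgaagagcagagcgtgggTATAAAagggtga
Aqp1, chr4:85812534-85812783, plus strand: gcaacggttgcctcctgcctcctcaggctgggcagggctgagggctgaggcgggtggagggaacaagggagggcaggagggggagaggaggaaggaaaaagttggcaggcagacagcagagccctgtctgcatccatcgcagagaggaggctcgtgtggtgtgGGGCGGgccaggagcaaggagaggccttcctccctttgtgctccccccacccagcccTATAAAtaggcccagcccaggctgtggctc
Both strands were searched for these motifs, for the CCAAT box (CCAAT) and for the E-box (CACGTG). The Slc14a1 window held TATAAA from base -13 to base -8, counted from the start. The Aqp1 window held TATAAA from base -30 to -25 and GGGCGG from -87 to -82, and neither window held the other motifs. Among the 33469 upstream windows of the same length in the table, 12.9% held TATAAA, 30.5% GGGCGG, 34.0% CCAAT and 5.59% CACGTG, on either strand. A match is a run of letters and was not tested as a binding site.

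Of the 11 probe sets, 5 lay above a floor of 330.9 intensity units on both arrays and 6 lay below it on both. The floor is the 40th percentile of all values without control probe sets, since the deposited table used here carries no detection calls. The probe sets above it belonged to Atp1b1 (2), Atp1b2, Aqp1 and Slc14a1, 1 each for the last 3 genes. Aqp3 and Aqp4 had no probe set above it.

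**Figure D1:**
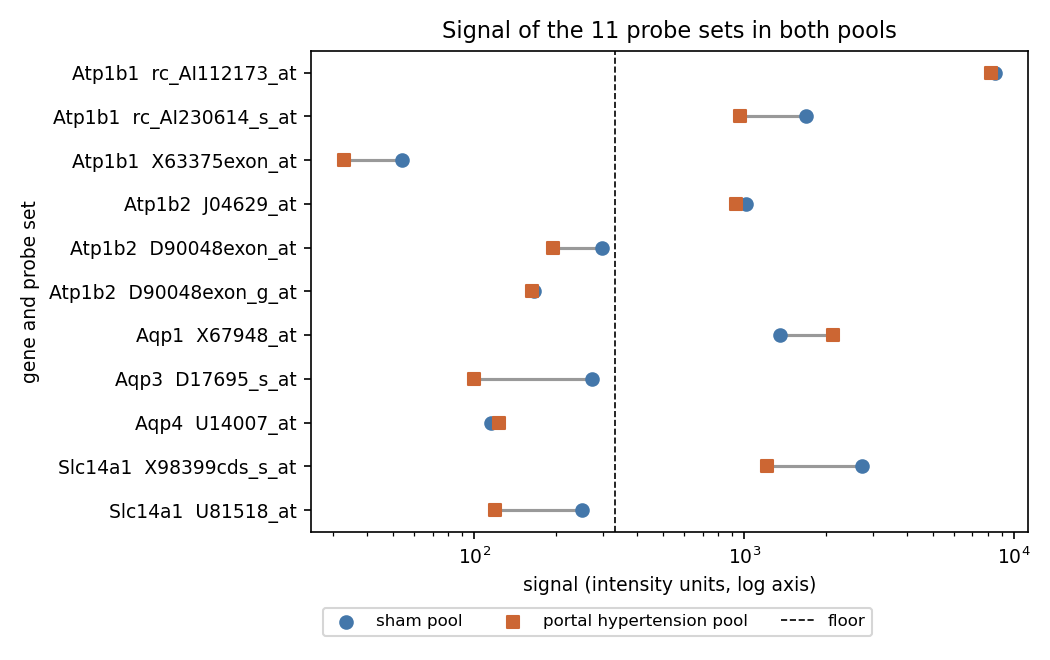
Signal of each of the 11 probe sets (rows) in the sham pool (circles) and the portal hypertension pool (squares), in intensity units on a log axis, with the floor of 330.9 as a dashed line. The 5 probe sets to the right of the line include Slc14a1 X98399cds_s_at, at 2739 and 1209.4, and Aqp1, at 1359.3 and 2126.1.

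Of the 5 probe sets above the floor, 2 were lower by 1.5-fold or more in the portal hypertension pool (Slc14a1 and 1 probe set of Atp1b1) and 1 was higher by that much (Aqp1). Among all 4960 probe sets above the floor on both arrays, 5.38% were lower by 1.5-fold or more and 3.1% higher by 1.5-fold or more. Since the contrast itself chose Slc14a1, these counts are given without reading anything from them. Across all of these probe sets log2 ratios (portal hypertension over sham) had an SD of 0.35. Ratios from different probe sets of the same gene, the nearest thing to a technical replicate here, scattered with an SD of 0.30 (1801 probe sets of 789 genes).

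Among the beta subunit genes of the sodium pump, Atp1b1 gave readings that did not match each other. Atp1b1 encodes the most widespread beta subunit. Its brightest probe set, rc_AI112173_at, read 8480.6 units in the sham pool against 8221.6 in the portal hypertension pool, giving a log2 ratio of -0.045. Its probe set rc_AI230614_s_at had 1697 and 966, which is 1.76-fold lower and a log2 ratio of -0.81. Its last probe set, X63375exon_at, had 54 and 32.8, far below the floor. The 2 measured ratios were 0.77 apart, and of the 789 genes with more than 1 measured probe set 61 (7.73%) had a spread at least that wide. The median over both measured probe sets was -0.43, which was -0.045 when the probe sets whose names carry a letter for shared or related sequence, rc_AI230614_s_at among them, were left out, and -0.72 without a floor. The array therefore gave no settled size for Atp1b1, and its brightest reading was nearly equal in both pools.

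Atp1b2, whose product is the beta subunit best known from glial cells and neurons, was measured by 1 of its 3 probe sets. J04629_at read 1015.4 units in the sham pool against 933.6 in the portal hypertension pool, giving a log2 ratio of -0.12, smaller than the same-gene SD of 0.30. D90048exon_at had 296.3 and 195.4, and D90048exon_g_at had 166.9 and 164. Both D90048exon probe sets lay below the floor on both arrays.

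The only water channel gene of the group measured on both arrays was Aqp1, the aquaporin of vascular endothelium and red blood cells. Its probe set X67948_at read 1359.3 units in the sham pool against 2126.1 in the portal hypertension pool. This is 1.56-fold higher, a log2 ratio of 0.65, and 124 of the 4960 measured probe sets had a higher ratio. The signals were 4.11 and 6.43 times the floor. The gene rests on 1 probe set, so no second reading of it was at hand.

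Aqp3, a channel for water and glycerol best known from the basolateral membrane of epithelia, had signals of 273.9 and 99.7. Aqp4, the water channel of astrocyte end-feet that is also found in skeletal muscle fibres, had 115 and 123.4. Neither gene exceeded the floor in either pool, and no fold is given at this setting. With the floor lowered to the 20th percentile, Aqp3 had a log2 ratio of at most -1.36, because its signal in the portal hypertension pool was then still below the floor, and Aqp4 had 0.10.

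Slc14a1, the urea transporter gene picked for its lower signal, had 1 of its 2 probe sets above the floor, and that one was lower in the portal hypertension pool. X98399cds_s_at read 2739 units in the sham pool against 1209.4 in the portal hypertension pool, which is 2.26-fold lower and a log2 ratio of -1.18. Both signals were well above the floor, at 8.28 and 3.65 times its value. Of the 4960 measured probe sets, 24 had a lower ratio, and 0.907% were at least 2-fold lower. U81518_at had 251.2 and 119.6, below the floor on both arrays, so it gives no second reading at this setting. The measured probe set has a name ending in _s_at, which marks probes that can match more than 1 transcript, and when such probe sets were left out Slc14a1 had no value above the floor.

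**Figure D2:**
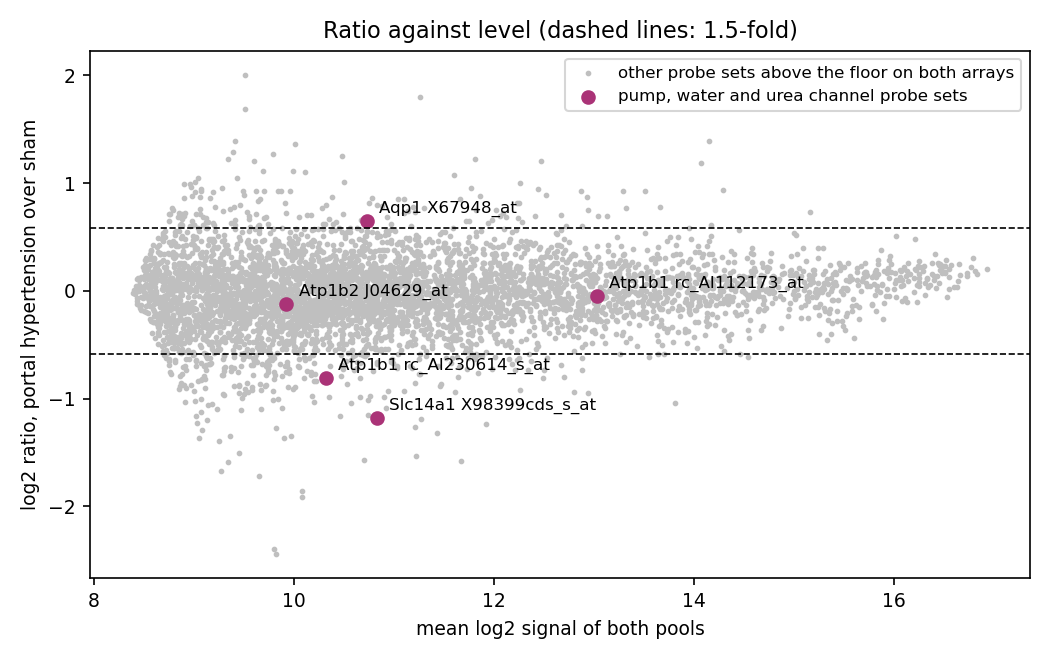
Log2 ratio of portal hypertension over sham (vertical) against the mean log2 signal of both pools (horizontal) for the 4960 probe sets above the floor on both arrays, with dashed lines at 1.5-fold. Slc14a1 X98399cds_s_at at -1.18 and Atp1b1 rc_AI230614_s_at at -0.81 lie under the lower line, Aqp1 at 0.65 lies over the upper line, and Atp1b2 J04629_at and Atp1b1 rc_AI112173_at lie close to 0.

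The spread of ratios depended on the level. The SD of the log2 ratio was 0.40 among the dimmest tertile of measured probe sets, which holds Atp1b2 J04629_at, 0.34 in the middle tertile and 0.28 in the brightest tertile, which holds Atp1b1 rc_AI112173_at. The middle tertile, with mean signals from 984 to 3104, holds the probe sets of Aqp1, Slc14a1 and Atp1b1 rc_AI230614_s_at. There, 5.32% of 1653 probe sets were lower by 1.5-fold or more, 2.18% higher by 1.5-fold or more and 0.907% lower by 2-fold or more.

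The genes nearest to Slc14a1 in log2 signal over both arrays were Pcmtd2 (signals 2550.1 and 1150.9, distance 0.13), Rtcb (2444.1 and 1242.4, distance 0.17) and Lig4, a DNA ligase gene (2693.1 and 1358.8, distance 0.17). Nearest to Aqp1 were Pparg, the master regulator gene of fat cells (1401.1 and 2062.3, distance 0.06), the myeloid gene Ly86 (1413.4 and 2059.8, distance 0.07) and the splicing factor gene Eftud2 (1300.4 and 2058.5, distance 0.08). The distance is Euclidean over 2 arrays, so these are genes that had like signals in both pools and nothing more.

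Other genes, mostly of sodium, water and urea transport and of its control, were read from 4 lists. Over the 4 lists of 63 genes, 46 had a probe set and 32 had a value, meaning at least 1 probe set above the floor on at least 1 array. Of these 32, 25 had a median log2 ratio below 0 and 7 above 0, and 0 reached 1.5-fold in either direction. Aqp2, Slc8a3 and Slc12a3 were above the floor in the sham pool only, so their ratios are limits. Such limits could only come out below 0, so the 25 takes them in by rule, and the full differences may be larger. The counts over all genes with a value also take in limits of this kind. The Slc12a3 probe set had signals of 384.7 and 135.1. The list median over the 32 genes was -0.13. After quantile normalization 21 were below 0 and 11 above, and after the loess 22 and 10. Over all 3351 genes with a value, 1782 were below 0 and 1569 above 0, the median was -0.02, and 5.04% were lower by 1.5-fold or more and 3.13% higher by 1.5-fold or more. The lower count of the 4 lists rose to 3 under a 20th percentile floor and to 5 without any, where dim probe sets also enter. No share over all genes is given at those floors, so the rise is not read as particular to these lists.

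**Figure D3:**
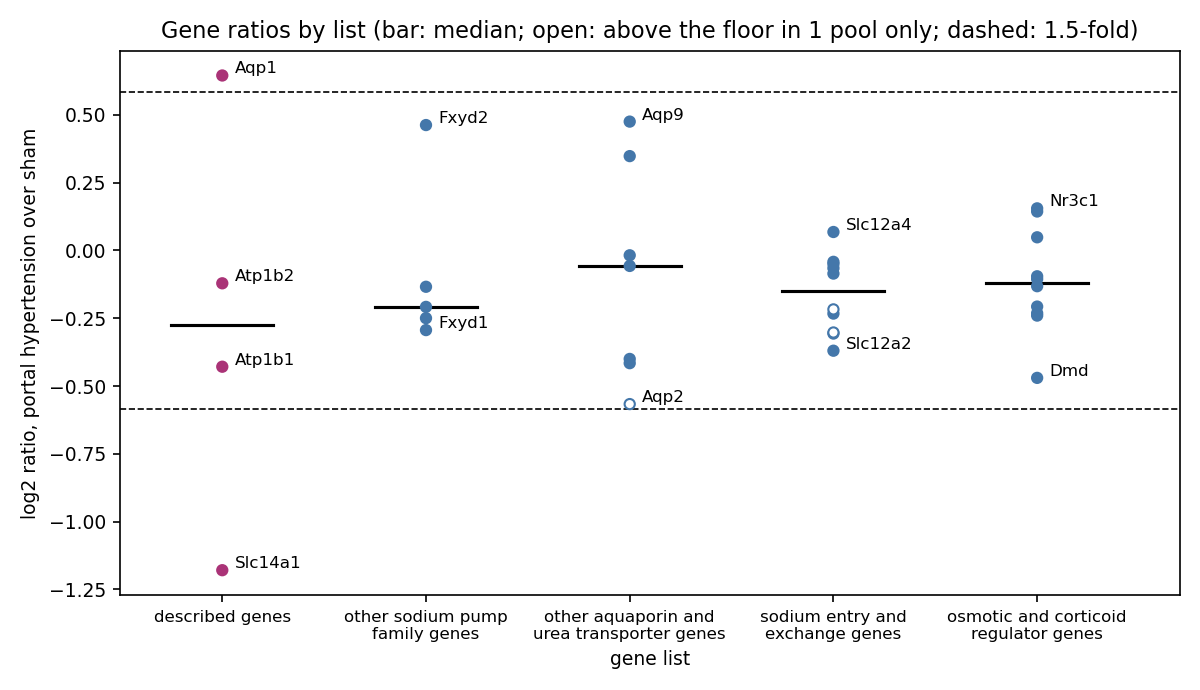
Log2 ratio of portal hypertension over sham for each gene with a value, by list, with the list median as a bar and dashed lines at 1.5-fold. Open circles are genes above the floor in 1 pool only, whose ratio is a limit. Slc14a1 at -1.18 and Aqp1 at 0.65 lie outside the lines, and no gene of the 4 other lists does.

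In the sodium pump family, 4 of the 5 genes with a value were below 0, with a list median of -0.21. Atp1b3, the gene of a further beta subunit, had signals of 19079 and 17387, a log2 ratio of -0.13. Fxyd1, which encodes phospholemman, the pump regulator of heart and smooth muscle, had a lower signal with either probe set, at 17632 and 13495 (log2 ratio -0.39) and at 8581.2 and 7461.4 (-0.20). Fxyd4 had -0.25. Fxyd2, the gamma subunit gene best known from kidney, had 781.6 and 1077, a log2 ratio of 0.46. Among the beta subunit and Fxyd1 probe sets measured on both arrays, Atp1b1 rc_AI230614_s_at was past 1.5-fold and the others were not.

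Among the other aquaporin and urea transporter genes, 5 of 7 with a value were below 0 and the list median was -0.06. Under each of the 3 other scalings 4 were below 0 and 3 above. Aqp9 and Aqp7, both channels that also pass glycerol, were above 0, Aqp9 with signals of 599 and 832.7 (log2 ratio 0.48) and Aqp7 with 2881.3 and 3667.2 (0.35). Aqp6 had 804.8 and 603.3, a log2 ratio of -0.42. Aqp2, the vasopressin-regulated channel of the kidney collecting duct, had 490.1 in the sham pool and 173.5, below the floor, in the portal hypertension pool, so its log2 ratio of -0.57 is a limit. That limit could only come out below 0, and the 5 genes below 0 include Aqp2. Slc14a2, the other urea transporter gene, had signals of 3941.8 and 2987 on the probe set that was measured, giving a log2 ratio of -0.40. Its other probe set, at 43.2 and 110.4, was below the floor.

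Genes of the sodium entry and exchange list were mostly slightly below 0, at 9 of 10 with a median of -0.15 (6 of 10 after quantile normalization and 7 of 10 after the loess). The list also holds the anion exchanger genes Slc4a1 (-0.05) and Slc4a2 (-0.09) and the potassium-chloride cotransporter gene Slc12a4 (0.07). Its counts are therefore not of sodium carriers alone. Slc12a2, the sodium-potassium-chloride cotransporter gene of smooth muscle, had -0.37 as the median of 2 probe sets, and Slc8a2 had -0.31. Slc8a3 and Slc12a3 were above the floor in the sham pool only, so their -0.30 and -0.22 are limits. Both could only come out below 0, and the 9 genes below 0 include them. Slc8a1, the sodium-calcium exchanger gene, gave -0.60 on its brightest probe set, with signals of 4468.6 and 2954.5, against 0.62 and -0.042 on its other measured probe sets, so its direction was not settled. Of 10 osmotic and corticoid regulator genes with a value, 7 were below 0 and the median was -0.12. Dmd, which encodes dystrophin, had -0.47, Avpr2, the kidney vasopressin receptor gene, had -0.24 and Stk39, a kinase gene that acts on cation cotransporters, had -0.23. Nr3c1 and Nr3c2, the glucocorticoid and mineralocorticoid receptor genes, had 0.16 and -0.13.

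**Figure D4:**
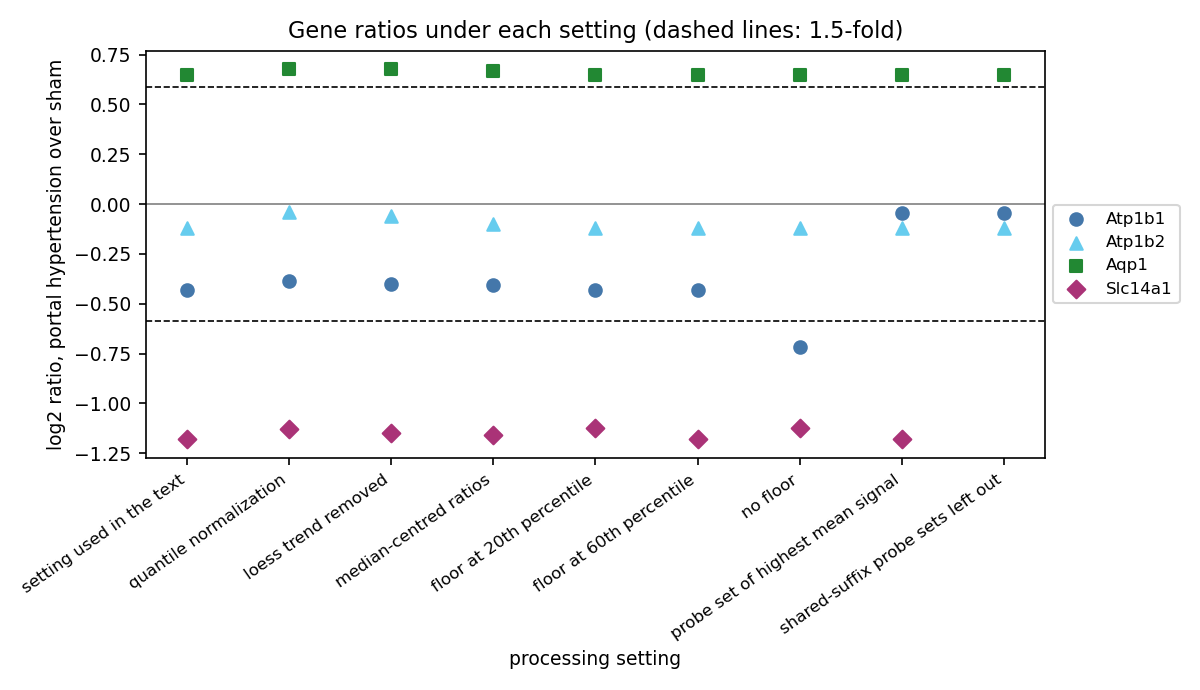
Log2 ratio of portal hypertension over sham for the 4 genes with a value under the setting used in the text and 8 other settings, with dashed lines at 1.5-fold. Slc14a1 stays between -1.18 and -1.12 where it has a value and Aqp1 between 0.65 and 0.68, while Atp1b1 ranges from -0.72 to -0.045. Settings that change the floor or the gene summary cannot move Aqp1, and some of them cannot move Slc14a1.

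Markers of the cell types that carry these channels were read in the same pools. Summed signals here and below take in every probe set of the listed genes, also those below the floor. Of 11 red blood cell genes, 5 had a probe set, none of the 5 was below the floor, and their signals summed to 316222 in the sham pool against 317302 in the portal hypertension pool. The haem synthesis gene Alas2 was lower, at 48684 and 36878, and Hbb higher, at 107955 and 122616. Hba-a3 was lower, at 52854.5 and 41039.4, and Hbb-b1 higher, at 103928 and 114137. Of these 5 genes 3 were below 0 and 2 above, so the near-equal sums join ratios of both directions. Of 13 endothelial genes, 8 had a probe set, with summed signals of 12610 and 11217. Edn1 had a log2 ratio of 0.62, Thbd -0.09, Pecam1 -0.10, Flt1 -0.29 and Icam2 -1.13. Nos3 had a median of -0.78, but its measured probe sets read -1.20, -0.78 and 0.25, so its direction was not settled. Kdr and Vwf were below the floor in both pools. The part of these cell types in the Slc14a1 and Aqp1 ratios was not tested.

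Some other marker lists also differed between the pools. The 10 lymphocyte genes, 8 with a probe set, had summed signals of 4721 and 3222. Of the 5 with a value, 3 were at least 1.5-fold lower (Cd8b, Cd3d and Cd79b), against 5.04% of all 3351 genes with a value. Cd3d and Cd79b were above the floor in the sham pool only, so their ratios are limits that could only come out below 0. Cd8b alone was measured in both pools and past 1.5-fold, so nothing is read from the count of 3. Cd3g had a log2 ratio of -0.31 and Cd4 had 0.16. Cd8a, Cd2 and Cd5 were below the floor. The 6 adipocyte genes, 5 with a probe set, had sums of 87982 and 107153, and Plin1 was below the floor. Of the 4 with a value, 3 were above 0, and Lep was below 0 at a median log2 ratio of -0.21. Nerve and glia genes, 9 of 12 with a probe set, had 47680 and 52468, with S100b measured and Mbp below the floor. Of the 6 with a value, 5 were above 0, the highest being Prph at 0.84, a limit because its sham signal was below the floor. Prph and Snap25 were above the floor in the portal hypertension pool only and could only come out above 0. Smooth muscle genes, 7 of 9, had 499592 and 469059, with none below the floor. Of these 7, 6 were below 0, the lowest being Kcnmb1 at a median of -0.68 (probe sets at -1.04 and -0.33), and Tagln was above 0 at 0.17. Epithelial genes, 8 of 10, had 3687.2 and 3694.4, with Slc5a1 measured (1260.8 and 1197.1 on its brighter probe set), Krt18 measured on 1 of its probe sets, and Epcam and Krt8 below the floor in both pools. Skeletal and cardiac muscle genes, 11 of 12, had 13956 and 13723, with 7 genes giving a value, among them Myh1 (4209.3 and 4155.4), Acta1 (2503.5 and 2182.5) and Ckm (1327.9 and 1581.8), and with Myh2, Myh7 and Actc1 below the floor. The mesothelial genes, 2 of 4, had no probe set above it. Their part in the ratios of the 6 genes was not tested. Per the file headers, the sham array ran on fluidics module 2 with a noted 17 µg of labelled cRNA and the other on module 1 with 12.5 µg, both amounts marked with a question mark. These cannot be told apart from the operation.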

How the data were processed

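Total RNA of 2 pools was read on 1 array each; per the labels it was isolated with TRIzol, followed by an RNeasy cleanup. The deposited intensity values are linear signals, 1 per probe set and array. How the authors made them (software, background correction, scaling target) is not given in the sources used here. Means without the lowest and highest 2% of values were 2500 in both columns, so the values were used as deposited. Values under the floor (40th percentile over the 8740 non-control probe sets) were raised to it before taking log2. A gene's value is the median log2 ratio over those of its probe sets that exceed the floor on 1 or both arrays. With 1 array per group no test was run, and counts use 1.5-fold and 2-fold. Names come from the platform annotation, and RefSeq gene identifiers kept all 11 symbols.

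Named are all probe sets of the 6 genes, at least the 3 largest ratios of each pathway list, and the 3 genes nearest to Slc14a1 and to Aqp1. The members, lists, thresholds and settings were chosen with earlier results of these data known. Recovery of planted ratios was checked on simulated arrays with less scatter than these data and large shifts in bright probe sets only. That check bears on the code and not on the precision of the ratios given here. Alternatives were quantile normalization, a loess trend (span 0.4), median centring, 3 other floors and 2 other gene summaries, with Python 3.11.15 and statsmodels 0.14.6.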

Additional observations from a re-analysis of the deposited data

How the results depend on the processing

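Slc14a1 had a log2 ratio between -1.18 and -1.12 under the settings that gave it a value. The 60th percentile floor and the choice of the brightest probe set could not move it, since X98399cds_s_at alone enters there. The -1.12 at the 20th percentile floor and without a floor is a median that takes in U81518_at, which is below the floor used in the text. Slc14a1 had no value when probe sets with a shared-sequence suffix were left out. Under the 3 scalings Aqp1 lay between 0.67 and 0.68 and Atp1b2 between -0.10 and -0.042, against 0.65 and -0.12 as deposited. The other settings could not move Aqp1, which has 1 probe set, above every floor and without such a suffix. Atp1b1 came to -0.045 with its brightest probe set and likewise -0.045 without shared-suffix probe sets. Over the 4 pathway lists, where 0 genes were past 1.5-fold, 3 were lower and 1 higher with the floor at the 20th percentile (37 genes with a value). At the 60th percentile 1 was lower (22 genes), without a floor 5 were lower and 2 higher (46 genes), and with the brightest probe set 1 was lower. No share over all genes is given at these settings, so the counts are not read as particular to the lists. No paired analysis was possible because each group has 1 array. Signals below the floor give no order, which limits Aqp3, Aqp4 and the dim probe sets of Atp1b1, Atp1b2 and Slc14a1.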

Other observations

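The 3 genes nearest to Slc14a1 in both pools, Pcmtd2, Rtcb and Lig4, and the endothelial marker Icam2 were all read by probe sets whose names start with rc_AI639. Looked at after these values were seen, 22 of the 191 measured probe sets of that name series (11.5%) were at least 1.5-fold lower in the portal hypertension pool and 4 (2.09%) were higher by that much, against 5.38% and 3.1% of all measured probe sets. The 22 include the 4 probe sets that prompted the look. Neither Slc14a1 probe set belongs to it.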
